A study of Oryctolagus cuniculus with 10 samples.

Results

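NR4A3 (ENSOCUG00000000737), also known as NOR1, was followed in vocal fold tissue of 10 rabbits as 1 of the 23669 gene rows of the deposited count table. The row was located by its identifier. The cadherin CDH3 (ENSOCUG00000029153) and the syndecan SDC1 (ENSOCUG00000025956) were located the same way, as epithelial genes to set beside it. The table pairs no identifier with a gene name, and 0 of its identifiers matched the reference gene table used here. The names of these 3 identifiers were taken as given when the rows were chosen and could not be checked against an annotation. The study places the NR4A3 row under 6 of the 12 functional term lists used below, among them transcriptional activator activity and epithelial cell proliferation. The study had picked this gene for its difference between these same rabbits, so that difference is not independent evidence.

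All rabbits were New Zealand White males of 6 months that had been hydrated with sucrose solution before the experiment. The 4 control rabbits (numbers 12, 14, 17 and 21 in the labels) received an intraperitoneal injection of saline and kept food and water. The 6 dehydrated rabbits (numbers 13, 15, 16, 18, 19 and 22) were injected with 5 mg/kg of the loop diuretic furosemide, had food and water withheld, and were euthanized once body weight had fallen by about 5%. Some rabbits of the study received a second injection and the time to the target weight varied, and neither is given per rabbit in the sources used here. Each library came from the RNA of 1 rabbit's vocal folds, excised with mucosa and thyroarytenoid muscle together, so that fewer cells of a type and less RNA per cell cannot be told apart.

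NR4A3 is an orphan nuclear receptor, a transcription factor of the same family as NR4A1 and NR4A2. The members of this family have no established natural ligand and are regulated largely by how much of the transcript is made, which rises quickly and for a short time after stimuli such as growth factors, cyclic AMP signaling, stress and, in skeletal muscle, exercise. CDH3 encodes P-cadherin of adherens junctions, and SDC1 encodes a heparan sulfate proteoglycan of the epithelial cell surface.

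Gene counts summed to 39039165 in the shallowest and 69670859 in the deepest library, so that 3 counts were worth at most 0.0768 CPM (counts per 1000000 gene counts), which allows for counting error alone. NR4A3 was counted at least 107 times in every rabbit. A total of 15040 genes passed edgeR's filter on low counts. The share of reads ambiguous between genes split the libraries into 2 sets of 5, and each set held 2 control and 3 dehydrated rabbits.

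NR4A3 was low in all control rabbits and widely spread among the dehydrated rabbits. In control rabbits 12, 14, 17 and 21 it was counted 107, 842, 275 and 131 times, which corresponded to 2.24, 13.0, 5.90 and 1.74 CPM after TMM scaling, a scaling of library sizes that is robust to a few very abundant genes. The dehydrated rabbits ranged from 11.5 CPM (498 counts, rabbit 18) through a median of 135 CPM to 305 CPM (16269 counts, rabbit 16). All dehydrated values but 1 lay above the highest control value, and rabbit 18 lay between control rabbits 14 and 17. Within the dehydrated group, rabbits 16, 19 and 22 had at least 227 CPM, while rabbits 13, 15 and 18 had at most 42.9 CPM, and no rabbit had a value between these.

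Averaged over rabbits, NR4A3 reached 141 ± 131 CPM in dehydrated tissue (SD, n = 6) against 5.72 ± 5.20 CPM in control tissue (SD, n = 4). The log2 difference estimated by edgeR was 4.62 ± 1.14 (SE), and its quasi-likelihood p of 0.00196 became 0.483 after Benjamini-Hochberg adjustment over all genes tested. Of the 15040 genes tested, 0% had an adjusted p of 0.05 or less and 9.52% had an unadjusted p of 0.05 or less, and NR4A3 was 34th by p and 3rd by the size of its log2 difference. The difference in mean log2 CPM gave p = 0.0190 when all 210 ways to divide the rabbits into 4 and 6 were enumerated (exact permutation, two-sided). DESeq2 gave NR4A3 an adjusted p of 0.00341, and over the other scalings, filters and tests and with any one rabbit left out it was as high as 0.990, so that the call depended on the test. The groups overlapped, whereas 1.22% of all genes tested had no overlap. The study had called NR4A3 higher in dehydrated rabbits with Cuffdiff, and it reported the same direction by RT-qPCR. Neither was repeated here.

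**Figure D1:**
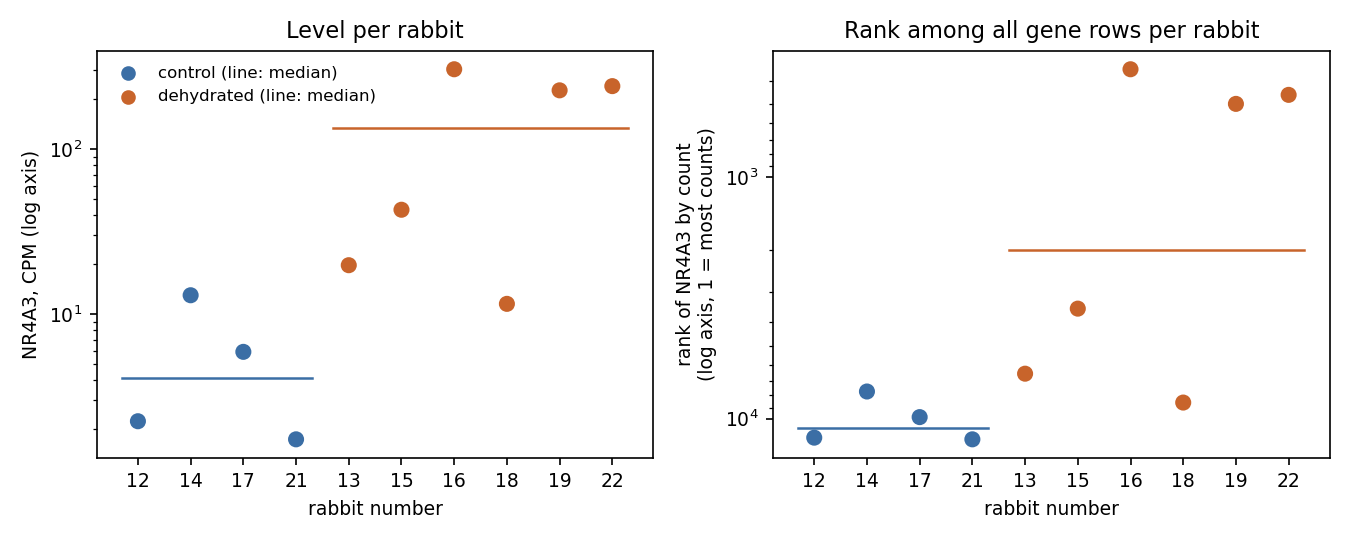
NR4A3 in each rabbit, as CPM on a log axis (left) and as its rank by count among all gene rows on an inverted log axis (right), with 1 point per rabbit and a line at each group's median. Dehydrated rabbits 16, 19 and 22 stood at 227 CPM or more and within the first 498 ranks, and dehydrated rabbit 18 lay among the control rabbits in both plots.

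The same split appeared in the rank of NR4A3 among the genes of each rabbit. Genes were ranked by count, since the table holds no gene lengths, so a rank can be compared for NR4A3 between rabbits but is no measure of transcripts against other genes. NR4A3 ranked 11997th, 7727th, 9863rd and 12190th in control rabbits 12, 14, 17 and 21. Of the dehydrated rabbits, rabbit 16 had NR4A3 at rank 358, rabbit 22 at 457 and rabbit 19 at 498. In rabbit 15 it was at rank 3507, in rabbit 13 at 6520 and in rabbit 18 at 8586. Thus between 2.20 and 3.07% of the genes with at least 1 count stood above NR4A3 in rabbits 16, 19 and 22, against 53.1% in dehydrated rabbit 18 and between 47.6 and 75.6% in the control rabbits.

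The spread of NR4A3 among rabbits of one group was larger than that of most genes. Its SD around the group means was 1.81 on the log2 scale, against a median of 0.405 over all genes tested, and 2.65% of the genes had an SD as large. Among the dehydrated rabbits the highest CPM of NR4A3 was 26.4 times the lowest, while it was 1.94 times for CDH3 and 1.64 times for SDC1. Among the control rabbits the same ratio was 7.47 for NR4A3, 3.38 for CDH3 and 4.63 for SDC1, so the genes were closer to each other there.

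To describe which genes varied together with NR4A3, group means were removed from the log2 CPM of every gene, so that the difference between control and dehydrated rabbits took no part. Pearson r with NR4A3 over the 10 rabbits then had a median of -0.0421 over the 15039 other genes, with quartiles of -0.474 and 0.424. An absolute r of 0.8 or more was reached by 1356 genes, or 9.02%, of which 549 (3.65%) were positive and 807 (5.37%) negative. The number was 2281 without control rabbit 14, 2512 without control rabbit 17 and 2129 without dehydrated rabbit 15. These are values over only 10 rabbits that share their libraries, and they were read beside those of other genes. The median gene had 491 partners at this level, the quartiles were 165 and 1164, and 20.3% of the genes tested had more partners than NR4A3.

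A test of the NR4A3 covariate in edgeR's quasi-likelihood model, with group in the model, gave an adjusted p of 0.05 or less for 942 of the 15039 genes, or 6.26%. Of these, 666 (4.43%) fell with NR4A3 and 276 (1.84%) rose with it. The change per doubling of NR4A3 had a median of -0.483 on the log2 scale in the genes that fell and of 0.241 in those that rose. The share of rising genes was 29.3%, and it was 47.4% without control rabbit 17, 46.6% without dehydrated rabbit 15 and 40.6% with DESeq2, so the excess of falling genes rested in part on single rabbits and on the test. The number of genes rested on single rabbits too. Without dehydrated rabbit 16, 18, 19 or 22 it was 1, 0, 10 or 7, and without dehydrated rabbit 13 it was 70, although 3085 to 4628 genes had an unadjusted p of 0.05 or less when any one rabbit was left out. Without control rabbit 12 it was 483, while without control rabbit 14 or 17 it was 1678 or 2009. It was 61 with total-count scaling, 50 of them falling, and 12 with the log2 of the gene count total as a covariate, which was chosen after seeing the data.

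**Figure D2:**
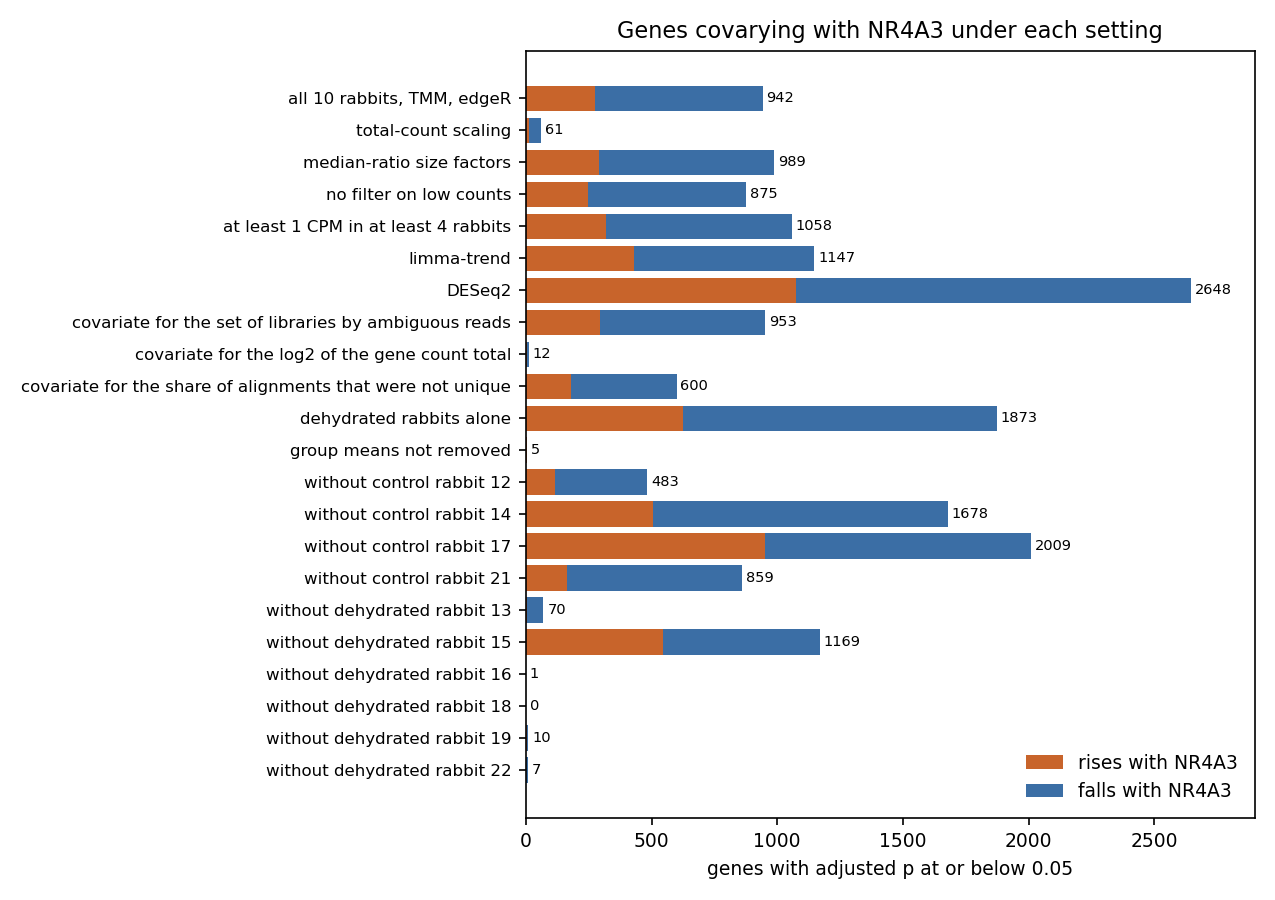
Number of genes with an adjusted p of 0.05 or less for the NR4A3 covariate under each setting, with genes that rose (orange) and fell (blue) with NR4A3 stacked in each bar. The number ranged from 0 without dehydrated rabbit 18 to 2648 with DESeq2, against 942 in edgeR's test over all 10 rabbits.

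The 2 genes with the highest r were ENSOCUG00000003743 and ENSOCUG00000014857, and the 2 with the lowest were ENSOCUG00000027714 and ENSOCUG00000010420. As they were selected for their r, it is given as a description with no test. For ENSOCUG00000003743 r was 0.97 and Spearman's rho was 0.95. It had 25.9, 39.4, 38.3 and 27.2 CPM in control rabbits 12, 14, 17 and 21, and from 26.8 CPM in rabbit 18 to 81.4 CPM in rabbit 16 in the dehydrated group. Thus the rabbit with the most and the rabbit with the least NR4A3 among the dehydrated rabbits were also the highest and lowest for this gene.

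ENSOCUG00000014857, also with r = 0.97, ran from 21.2 CPM in rabbit 21 to 33.4 CPM in rabbit 14 among the control rabbits, and from 19.0 CPM in rabbit 18 to 54.6 CPM in rabbit 19 among the dehydrated rabbits. ENSOCUG00000027714 ran the other way, with r = -0.97. It had 8.0, 1.44, 3.26 and 6.90 CPM in control rabbits 12, 14, 17 and 21, and at most 1.01 CPM in dehydrated rabbits 16, 19 and 22 against 5.86, 7.34 and 24.3 CPM in rabbits 15, 13 and 18. ENSOCUG00000010420 (r = -0.97, rho = -1) had its highest value, 22.6 CPM, in dehydrated rabbit 18 and its lowest, 9.35 CPM, in dehydrated rabbit 16. Between the groups these genes had adjusted p-values of 0.527, 0.673, 0.892 and 0.882 in edgeR's quasi-likelihood test. As 0 of the 15040 genes tested reached 0.05 in that test, it does not set these genes apart from others. The table does not pair their identifiers with names.

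**Figure D3:**
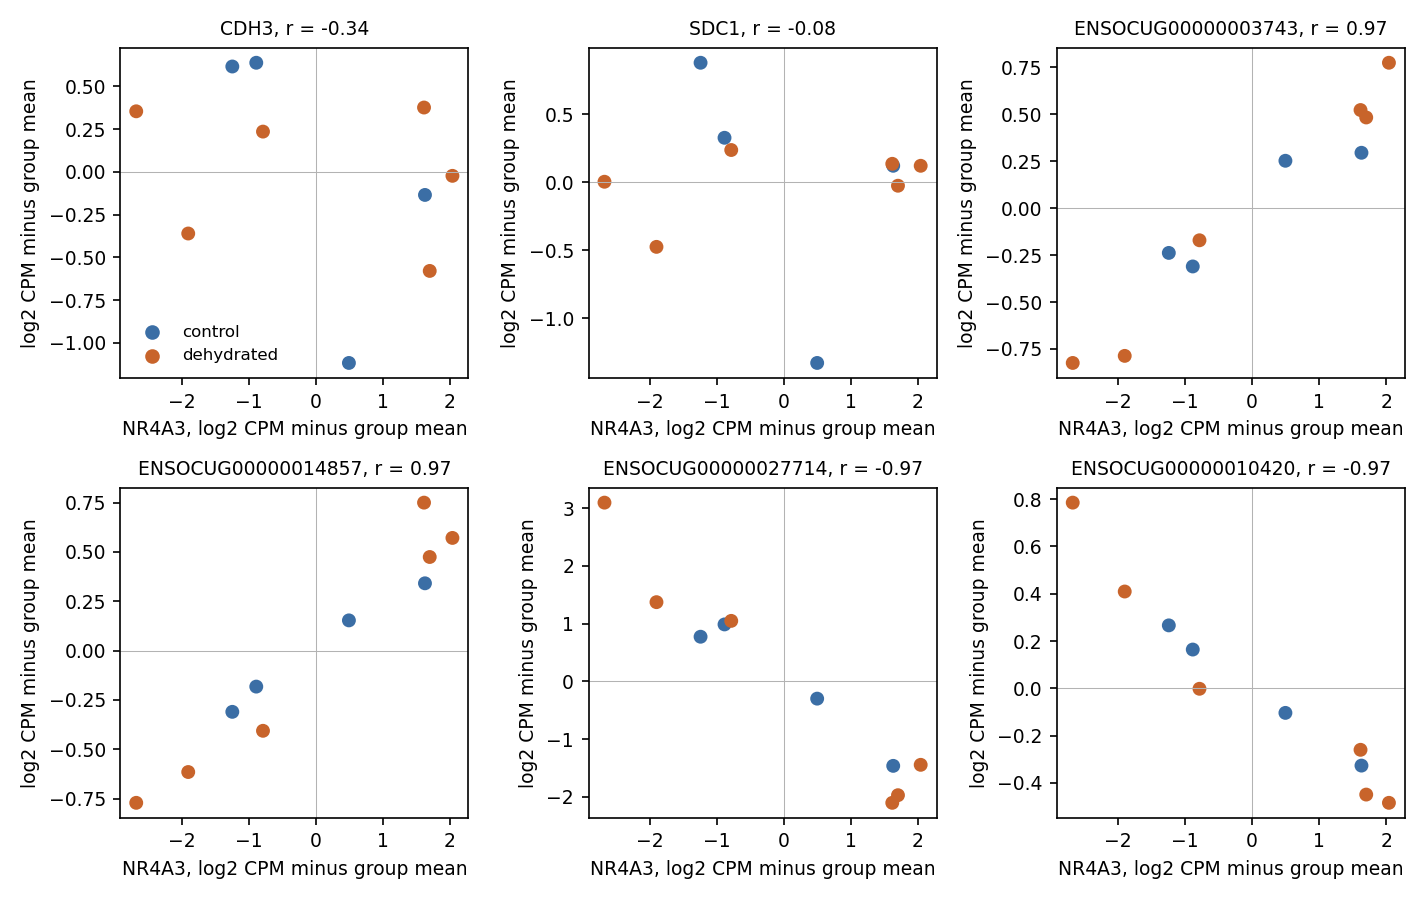
Log2 CPM minus the group mean of NR4A3 (horizontal) against that of CDH3, SDC1 and the 2 genes with the highest and 2 with the lowest r (vertical), with 1 point per rabbit. The points of the last 4 genes follow a line in both groups, and those of CDH3 (r = -0.34) and SDC1 (r = -0.08) do not.

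No covariation of CDH3 or SDC1 with NR4A3 passed the test over these 10 rabbits. CDH3 had 36.0, 21.1, 10.6 and 35.5 CPM in control rabbits 12, 14, 17 and 21 and from 7.43 to 14.4 CPM, with a median of 12.0 CPM, in the dehydrated rabbits. Its lowest dehydrated value, in rabbit 22, and its highest, in rabbit 19, both came from rabbits with at least 227 CPM of NR4A3. With group means removed, r was -0.34 (p = 0.277, exact permutation of rabbits within groups, two-sided, 17280 arrangements) and rho was -0.37 (p = 0.247, same exact permutation test). Adjusted over the 2 genes compared with NR4A3 in this way, these p-values were 0.555 and 0.495 (exact permutation, Benjamini-Hochberg). The change of CDH3 per doubling of NR4A3 was -0.11 on the log2 scale with a standard error of 0.10 (edgeR, quasi-likelihood, adjusted p = 0.505). Without dehydrated rabbits 16 and 18, the 2 farthest from the median of NR4A3, r was -0.31. With all 10 rabbits, 33.3% of all other genes had a lower r than CDH3. Over the control rabbits alone r was -0.64, and over the dehydrated rabbits alone it was -0.21.

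SDC1 had 194, 168, 61.3 and 284 CPM in the same order of control rabbits and from 56.4 to 92.4 CPM, with a median of 82.0 CPM, in the dehydrated rabbits. Over the 6 dehydrated rabbits SDC1 thus changed little while NR4A3 changed widely. For SDC1 r was -0.08 (p = 0.813 in the exact permutation test, adjusted p = 0.813) and rho was -0.10 (p = 0.760, exact permutation, adjusted p = 0.760), and r was -0.14 without the same 2 rabbits. The sign of r was not stable, as it was 0.09 without control rabbit 17 and 0.11 without control rabbit 21. It also differed between the groups, with r = -0.49 over the control rabbits alone and 0.44 over the dehydrated rabbits alone. The change per doubling of NR4A3 was -0.03 with a standard error of 0.10 (edgeR, quasi-likelihood, adjusted p = 0.879). CDH3 and SDC1 varied together with group means removed, with r = 0.86 over the 10 rabbits. Control rabbit 17 lay farthest from its group mean for both genes, at -1.12 for CDH3 and -1.33 for SDC1 on the log2 scale. The r between them was not computed for each group. A test of whether the slope on NR4A3 differed between control and dehydrated rabbits, chosen after seeing the data, gave adjusted p-values of 0.702 for CDH3 and 0.692 for SDC1 (edgeR). Over all other genes the slopes differed at an adjusted p of 0.05 or less in 0.0199% and at an unadjusted p of 0.05 or less in 9.18%.

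When group means were left in, r with NR4A3 was -0.70 for CDH3 (p = 0.0261, permutation test with 100000 resamples) and -0.55 for SDC1 (p = 0.10, same permutation test). These values include the difference between the groups, in which mean CPM was higher for NR4A3 and lower for both epithelial genes in the dehydrated rabbits, each with an adjusted p of 0.483 in edgeR. The exact permutation test over 210 divisions gave p = 0.0286 for CDH3 and p = 0.0333 for SDC1. The study had called both genes lower in these same rabbits, so these p-values are not independent evidence.

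Other epithelial genes were taken from term lists that the study drew from its differentially expressed genes. The study chose them on these rabbits, so they are not independent evidence of a difference between groups, and that difference was removed here. Of the 14 genes listed under epithelial cell differentiation, 7 had a positive and 7 a negative r with NR4A3, the median was 0.06, and 0 covaried with NR4A3 at an adjusted p of 0.05 or less against 6.26% of all other genes. Intermediate filament is a term that takes in keratins, the structural proteins of epithelial cells. For its 8 genes r lay between -0.70 and 0.45 with a median of 0.13. Of the 17 genes under cell junction, the proteins that hold neighboring cells together, it lay between -0.59 and 0.57 with a median of 0.00. In both lists 0 genes covaried with NR4A3 at an adjusted p of 0.05 or less. These values pool the groups, and for many genes of these lists r was negative in the control and positive in the dehydrated rabbits. An intermediate filament gene had -0.46 over the 4 control and 0.86 over the 6 dehydrated rabbits, and another had -0.30 and -0.93. Under epithelial cell differentiation, the same values were -0.39 and 0.87 for a gene and -0.35 and -0.76 for another. A median near 0 thus does not mean that r was near 0 in each group.

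Among the 9 other genes listed with NR4A3 under epithelial cell proliferation, 6 had a positive r, the median was 0.23 and 1 rose with NR4A3. Of the 18 other genes under cell adhesion, a list that also holds NR4A3, 1 rose with it and 0 fell, and the median r was 0.03. Of the 18 other genes listed under cell death, 4 rose and 1 fell with NR4A3, or 27.8% against 6.26% of all other genes. Their r lay between -0.92 and 0.92 with a median of 0.00. A single gene was the 1 that rose under epithelial cell proliferation, the 1 under cell adhesion and 1 of the 4 under cell death. Its adjusted p was 0.0475 (edgeR, quasi-likelihood), close to the threshold, so these counts are not separate results. All these list counts are drawn from the 942 genes called over 10 rabbits. That number fell to 0, 1, 7 or 10 without dehydrated rabbit 18, 16, 22 or 19, so the list counts are not stable either. Over all 133 other tested genes with any term, 6 rose and 5 fell, or 8.27%, which is near the 6.26% of all genes, and the median r was -0.01 against -0.0421. The remaining 6 lists were epidermis development, cytokine production, inflammatory response, blood vessel development, chemotaxis and transcriptional activator activity, with 14, 13, 13, 10, 7 and 5 other tested genes. In each of these at most 1 gene covaried with NR4A3, and the median r lay between -0.29 and 0.07. For blood vessel development and for chemotaxis, that gene was the same one that rose under epithelial cell proliferation.

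**Figure D4:**
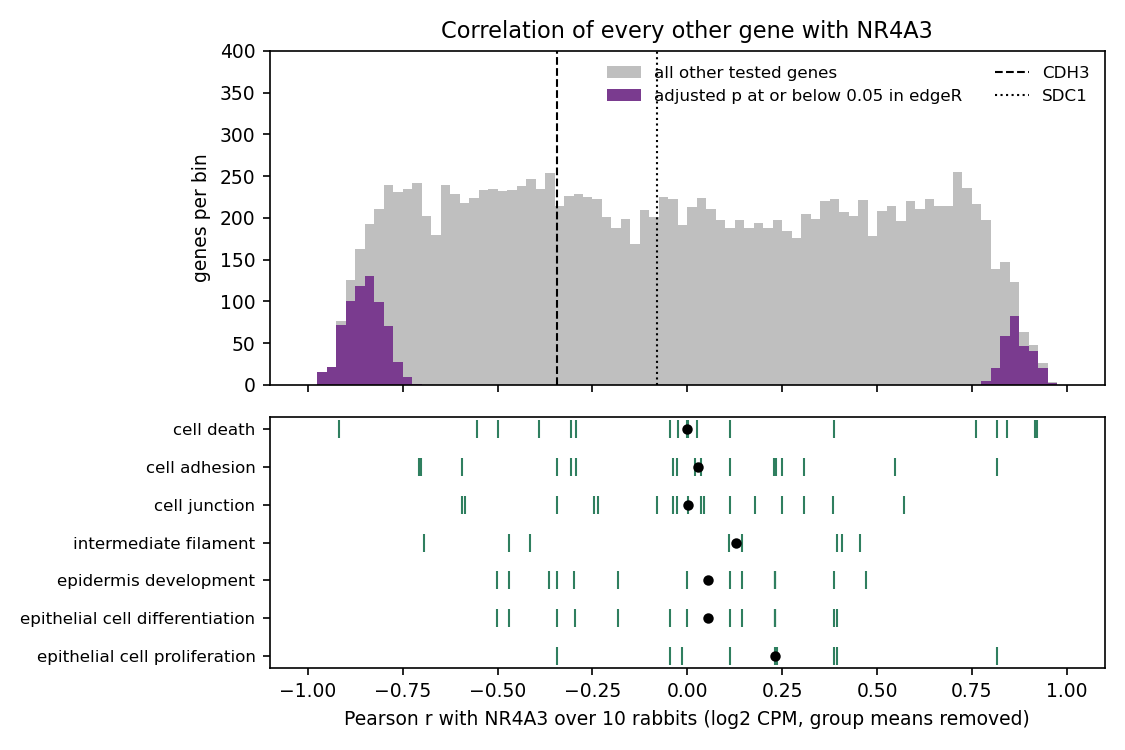
Top, distribution of Pearson r with NR4A3 over 10 rabbits with group means removed, for all 15039 other genes (gray) and for those with an adjusted p of 0.05 or less in edgeR (purple), with CDH3 and SDC1 as lines. Bottom, r of each gene (tick) and the median (dot) in 7 term lists, where the medians lie between 0.00 and 0.23 and the cell death list holds genes near both ends.

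Summed over the 8 intermediate filament genes, the level was 876 to 6691 CPM in the control rabbits and 570 to 1881 CPM in the dehydrated rabbits, and summed over the 17 cell junction genes it was 577 to 2770 and 514 to 966 CPM. The intermediate filament sum was 570 and 772 CPM in dehydrated rabbits 13 and 18, and 1618 CPM in rabbit 15. It was 1691, 1881 and 1476 CPM in rabbits 16, 19 and 22, which had the most NR4A3. Among the control rabbits it was 876 CPM in rabbit 17 and at least 4247 CPM in the others. The part of these sums in the level of NR4A3 was not tested, and markers of muscle, fibroblasts, vessels and leukocytes could not be matched to identifiers.

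Over the 10 rabbits together, NR4A3 followed the main direction in which rabbits of one group differed from each other. The first principal component of log2 CPM with group means removed held 37.2% of the within-group variance, and NR4A3 had r = 0.89 with it over the 10 rabbits. Of all genes tested, 4.80% had an absolute r as high. Dehydrated rabbits 18 and 13 lay at one end of this component with scores of -78.6 and -76.3, and rabbits 16, 22 and 19 at the other with 68.3, 49.3 and 46.9. Control rabbit 17, with 5.90 CPM of NR4A3, had a score of 42.7. Control rabbit 14, which had the most NR4A3 of the control rabbits, had -8.80, so the control rabbits did not follow the same order. Both the lowest and the highest score came from dehydrated rabbits, so the component rests more on that group. No r between NR4A3 and the component was computed for each group. The r with this component was -0.32 for CDH3 and -0.11 for SDC1.

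**Figure D5:**
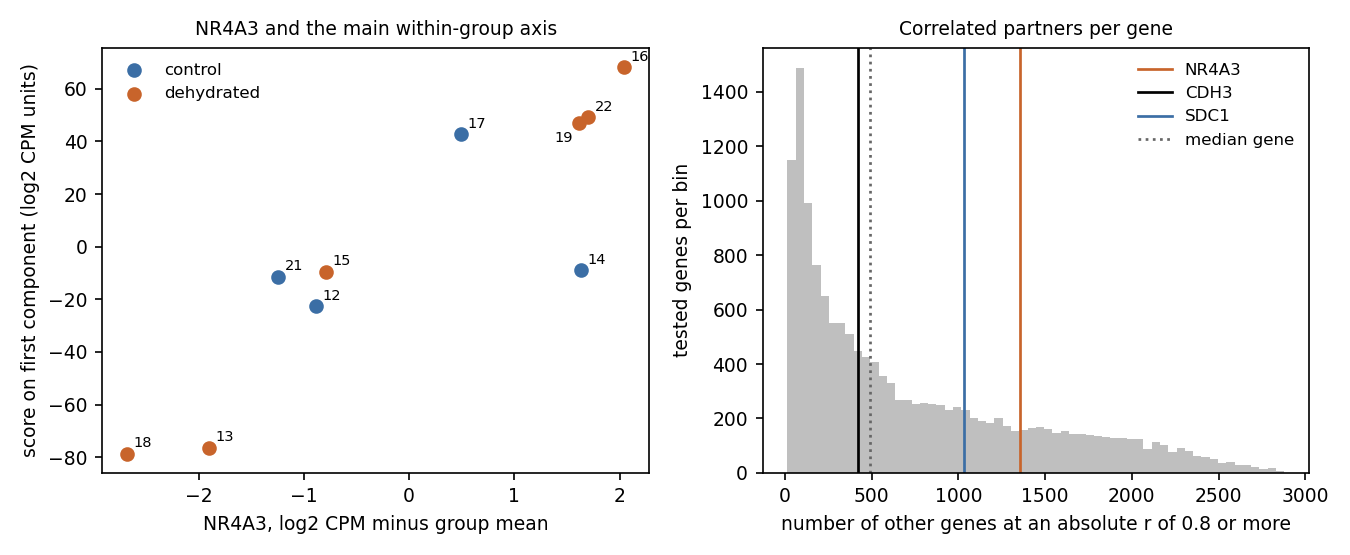
Left, score of each rabbit on the first within-group principal component against NR4A3 (log2 CPM minus group mean), with rabbit numbers at the points. Right, number of other genes at an absolute r of 0.8 or more for each tested gene, with lines at NR4A3 (1356), SDC1 (1034), CDH3 (421) and the median gene (491).

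For context, 5 library measures were set beside NR4A3 in the same way. With the log2 of the gene count total, r was 0.51 and rho was 0.60 (p = 0.156 and 0.115, exact permutation tests within groups), and r was 0.17 without dehydrated rabbits 16 and 18. With the share of alignments that were not unique, r was 0.33 (p = 0.369, exact permutation test), and it was 0.61 without those rabbits. For the share of reads ambiguous between genes, the share of counts in the 10 most counted genes and the number of genes with a count, r was 0.05, 0.36 and 0.16. Adjusted over the 5 measures, the lowest p of r was 0.615 (exact permutation tests, Benjamini-Hochberg). Within the set of libraries in which few reads were ambiguous, the log2 ratio of mean NR4A3 CPM, dehydrated over control, was 4.44, and within the other set it was 4.91.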

How the data were processed

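RNA was sequenced from vocal folds of 10 rabbits. The authors removed bases of low quality, mapped reads with STAR 2.5.4b to OryCun2.0 under Ensembl gene models, and the table they deposited holds a raw count for each gene and rabbit. HTSeq 0.7.0 is named in the submitters' processing notes, and 5 rows for reads not assigned to a gene, 41.1 to 55.7% of each column, were left out of library sizes and tests. The authors tested with Cuffdiff, which needs alignments. All columns were used.

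Tools were edgeR 4.0.16, DESeq2 1.42.0 and limma 3.58.1 in R 4.3.3, and scipy 1.17.1, numpy 2.4.6, matplotlib 3.10.9 and pandas 2.3.3 in Python 3.11.15. Dehydrated and control rabbits were compared by quasi-likelihood F-test in edgeR (TMM factors, filterByExpr, 15040 genes kept) with Benjamini-Hochberg adjustment and a threshold of 0.05. Standard errors were the log2 estimate divided by the square root of F. For covariation, log2 CPM was computed with a prior count of 2, group means were removed, and the centered NR4A3 value entered edgeR's model beside group. CDH3 and SDC1 were compared with NR4A3 by permuting rabbits within groups. The tests were run on simulated counts with known changes, in which the smallest simulated slopes on NR4A3 were missed. A gene that was not called, such as CDH3, SDC1 or a list member, can therefore still have a small slope on NR4A3. Replicates were separate rabbits, and in each of the 45 library pairs the chi-square over genes was at least 72.8 per degree of freedom.

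NR4A3, the gene lists and the tests were chosen with earlier results of these data known. Named genes were NR4A3, CDH3, SDC1 and the 2 genes with the highest and the 2 with the lowest r. The rule also named immediate-early genes, cell type markers and up to 4 list members with the highest absolute r. The first 2 could not be matched to identifiers. List members are given as counts or as r and summed CPM, since the files used here do not pair their identifiers with names. The reference gene table is of another assembly, so no coordinates are given, and no sequences were used here. The term lists came from the study's supplementary text, in which zeros of identifiers were misread and were restored to the length used in the table, after which 137 of 138 were found.

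Alternatives were other scaling factors, filters, tests, thresholds and prior counts, a covariate for the set of libraries, the dehydrated rabbits alone, group means left in, and leaving out each rabbit. Covariates for the gene count total and for the share of alignments that were not unique, and the test of slopes between groups, were chosen after seeing the data.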

Additional observations from a re-analysis of the deposited data

Results flagged for a closer look

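Among the 7 genes named with values in every rabbit, 14 groups were searched for a rabbit far from the others, of which chance is expected to give about 1 in 20. One was found, dehydrated rabbit 18, with 24.3 CPM of ENSOCUG00000027714, the gene with the lowest r with NR4A3, against at most 7.34 CPM in the other dehydrated rabbits. This gene was chosen for its inverse relation to NR4A3, and rabbit 18 had the least NR4A3 of the dehydrated rabbits, so a high value there goes with the choice of gene. On the log2 scale the gap to the next rabbit was 0.332 of the range, under the critical value of 0.625. NR4A3 itself had no such rabbit in either group.

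The slope on NR4A3 differed between control and dehydrated rabbits at an adjusted p of 0.05 or less in 3 of 15039 genes, or 0.0199%, and 9.18% had an unadjusted p of 0.05 or less (edgeR's quasi-likelihood test of the difference between slopes). Their adjusted p-values were 0.0180, 0.0345 and 0.0345. Each of the 3 fell with NR4A3 among the dehydrated rabbits. Among the control rabbits 2 of them rose with NR4A3, and 1 fell as it did in the dehydrated rabbits. The control slopes rest on 4 rabbits.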

How the results depend on the processing

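The log2 difference of NR4A3 between groups kept its direction under all 18 alternatives (4.25 to 5.43 with 1 rabbit left out), and its adjusted p passed 0.05 only with DESeq2, at 4.62 on the log2 scale. Its median rank in each group was the same among tested genes only. The number of genes covarying with NR4A3, 942, stayed within 1.5 times that value under 7 of 22 alternatives. It was 2324 at an adjusted p of 0.1, 61 with total-count scaling, 2648 with DESeq2, 1873 in the dehydrated rabbits alone, 5 with group means left in, 12 with the gene count total and 600 with the share of alignments not unique as covariate, and 0 to 2009 with 1 rabbit left out. Of the 61 genes with total-count scaling, 18.0% rose with NR4A3, against 29.3% of the 942. The cause was not tested. The number of genes at an absolute r of 0.8 or more, 1356, was 801 with total-count scaling, 4008 in the dehydrated rabbits alone, 542 with group means left in, and 1032 to 2512 with 1 rabbit left out. With total-count scaling the median r of all genes was -0.234. The r of CDH3 passed the threshold only with group means left in (-0.70) and was -0.50 to -0.21 with 1 rabbit left out, and that of SDC1 was -0.23 to 0.11 with 1 rabbit left out and changed sign to 0.44 in the dehydrated rabbits alone. No paired analysis was possible because the rabbit numbers in the labels are not shared between the groups. With 4 and 6 rabbits, correlations of single genes rest on few points, and depth was not the limit for NR4A3.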
